A study of Mus musculus with 12 samples.

Results

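The 9 genes described here govern mitochondrial dynamics and mitophagy in mouse hearts: Mfn1, Mfn2 and Opa1 for fusion, Dnm1l and Fis1 for fission, Pink1 for ubiquitin-dependent mitophagy, and the mitophagy receptors Bnip3, Bnip3l and Fundc1. They were chosen by symbol, and all 9 were found among the 19308 genes of the count table. RNA was sequenced from 12 hearts of C57BL/6 mice in 4 groups of 3 biological replicates. WT sham hearts came from wild-type mice after a sham operation and WT TAC hearts from wild-type mice after transverse aortic constriction (TAC), a surgical narrowing of the aorta that loads the left ventricle with pressure. F3-KO sham and F3-KO TAC hearts came from mice with a global, CRISPR-Cas9-made loss of Fabp3, the fatty acid binding protein of heart muscle, after the same operations. All mice were operated on at 8 weeks of age and the hearts were collected 1 week later, with no drug or other allele given for any group. The hearts therefore bear on early pressure overload, and loss of Fabp3 was not limited to cardiac muscle cells.

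Mitochondria of heart muscle are constantly reshaped. Mitofusins join outer membranes and OPA1 joins inner membranes, while the dynamin-related GTPase DRP1, the product of Dnm1l, is drawn to the outer membrane and divides the organelle. Damaged mitochondria are removed by mitophagy, either after PINK1 accumulates on them and their outer membrane proteins are ubiquitinated, or through receptors of the outer membrane such as BNIP3, BNIP3L (NIX) and FUNDC1 that bind LC3 on the growing autophagosome. These pathways are largely controlled by protein cleavage, phosphorylation and ubiquitination, none of which is seen in RNA.

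The libraries held 10424334 to 14372011 counts. Values are given as CPM, the counts scaled to a common library size with edgeR's TMM factors, and differences as log2 differences ± SE from edgeR's quasi-likelihood fit to all 12 hearts, in which 14094 genes were tested and a gene was called when its p, adjusted by Benjamini and Hochberg's method, was under 0.05. The targeted gene followed its labels: Fabp3, the heart's cytosolic carrier of long-chain fatty acids, stood at 2466 ± 367 CPM (SD, n = 3) in WT sham and 2952 ± 97.4 CPM in WT TAC hearts, against 1065 ± 24.4 and 1053 ± 78.0 CPM in F3-KO sham and F3-KO TAC hearts, so that RNA of the gene was still counted in every F3-KO heart. The hypertrophy marker Nppb rose with TAC over both genotypes (1.86 ± 0.20, edgeR adjusted p = 0.010). The TAC hearts were uneven, however. Summed markers of fibroblasts and matrix reached 3391, 1492 and 1368 CPM in WT TAC hearts 1, 2 and 3 and 4417, 7805 and 1539 CPM in F3-KO TAC hearts 1, 2 and 3, against 737 to 1619 CPM in WT sham and 1039 to 1429 CPM in F3-KO sham hearts. By that sum WT TAC hearts 2 and 3 lay inside the range of the WT sham hearts, and F3-KO TAC heart 3 lay far below the other two of its group. By the mean log2 CPM of the same markers, in which each gene weighs alike, WT TAC heart 2 stood 0.78 above the WT sham mean and heart 3 0.23, against -0.21 to 0.24 for the WT sham hearts, so that only heart 3 lay inside.

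By counts per kilobase of the longest coding transcript, a rough scale for setting genes beside each other, the mean level over the 12 hearts was highest for Pink1 (263 CPM per kb), Mfn2 (220) and Bnip3 (160). Mfn1 (89.0) and Fis1 (75.2) followed, then Dnm1l (40.3), Opa1 (36.5) and Bnip3l (22.3), and Fundc1 was lowest at 16.3 CPM per kb. This order depends on the transcript length chosen. The median coding transcript was 1602 bases for Mfn1 and 814.5 for Fundc1, against 4562 and 1983 for the longest. For Bnip3l the 2 lengths were nearly equal, at 3248.5 and 3259 bases. The counts of Mfn1, Opa1 and Bnip3l were not whole numbers as deposited (no tolerance was allowed) in any of the 12 hearts, and those of Mfn2 in 11, so part of their reads may have been shared out between similar sequences, whereas those of Fis1, Pink1 and Bnip3 were whole throughout. Even Fundc1 lay far above a floor of 3 counts, with 317 to 499 counts in a heart. The members also differed in how steady they were. The within-group SD of log2 CPM was 0.62 for Bnip3 and 0.37 for Pink1, at the 97.0 and 87.5 percentile of 9372 genes with at least 10 CPM, while the other 7 members ranged from 0.15 for Fundc1 to 0.27 for Opa1 around a median of 0.21 over all those genes.

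**Figure D1:**
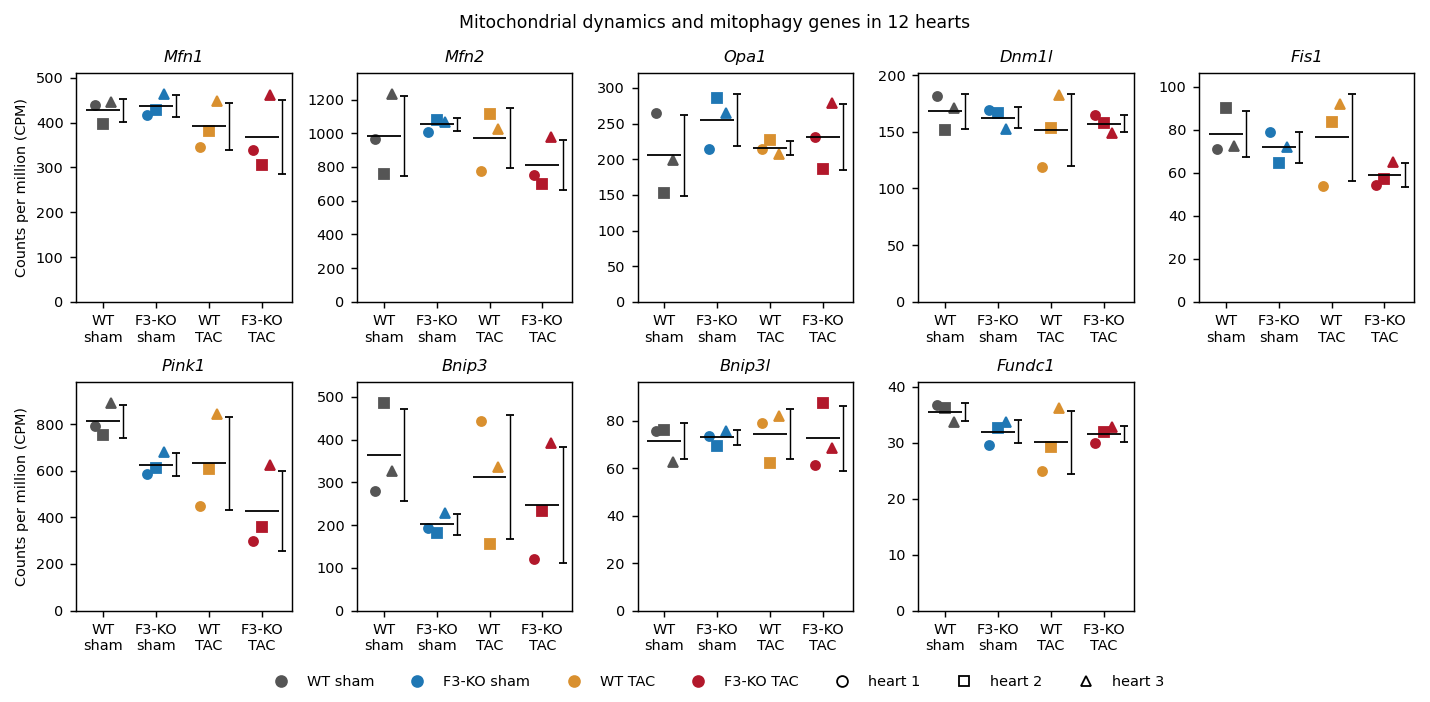
CPM of the 9 genes in each of the 12 hearts, by group. Points are single hearts (circle, square and triangle for hearts 1, 2 and 3), horizontal lines are group means and the bars beside them show ± 1 SD (n = 3). Pink1 lay lower in all 3 F3-KO sham hearts than in any WT sham heart, and the Bnip3 points spread more widely than those of the other genes.

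No member was called in any of the 7 comparisons, with edgeR, DESeq2 or limma-trend. With edgeR few genes were called in all, and the share of all tested genes called was 0% for TAC against sham in WT hearts, 0% for TAC against sham in F3-KO hearts, 0.106% for F3-KO against WT after sham, 0.078% for F3-KO against WT after TAC, 0% for the interaction of genotype and surgery, 0.078% for the mean TAC effect and 0.412% for the mean genotype effect. DESeq2 called 6 to 656 genes in the same comparisons. At an unadjusted p under 0.05 the only member was Pink1, in the mean TAC effect, where 17.8% of all genes passed that line, and in the mean genotype effect, where 10.1% did. In the other 5 comparisons 0 of 9 members passed it, beside 6.28% of all genes for TAC in WT hearts, 17.1% for TAC in F3-KO hearts, 6.02% for genotype after sham, 10% for genotype after TAC and 4.48% for the interaction. Without regard to any test, 8 of 9 members lay below 0 for TAC in F3-KO hearts, with a median of -0.14 on the log2 scale beside a median of 0.02 over all tested genes. For TAC in WT hearts 7 of 9 lay below 0, with a median of -0.13 beside 0.00 over all genes. For F3-KO against WT, 5 of 9 lay below 0 after sham (median -0.05, all genes -0.00) and 6 of 9 after TAC (median -0.09, all genes 0.02). Cell type markers moved both ways for TAC in F3-KO hearts. There 7 of the 9 cardiomyocyte markers were below 0 (median -0.39, 2 at an unadjusted p under 0.05), and so were all 6 red blood cell markers (median -2.21, 6 at an unadjusted p under 0.05), with none called by edgeR. Above 0 were all 8 fibroblast and matrix markers (median 1.74, 5 at an unadjusted p under 0.05) and all 8 macrophage markers (median 0.76, 6 at that line). So were all 5 smooth muscle and pericyte markers (median 0.08, 0 at that line) and 3 of the 5 endothelial markers (median 0.14), again with none called by edgeR. The red blood cell markers summed to 656 to 1743 CPM in WT sham, 1072 to 4507 in F3-KO sham, 299 to 4362 in WT TAC and 366 to 980 in F3-KO TAC hearts, and 1 of the 6 was at 0 in WT TAC heart 3. The part of these cells in the members' values was not tested. In bulk hearts, fewer cells of a type and less RNA per cell cannot be told apart.

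**Figure D2:**
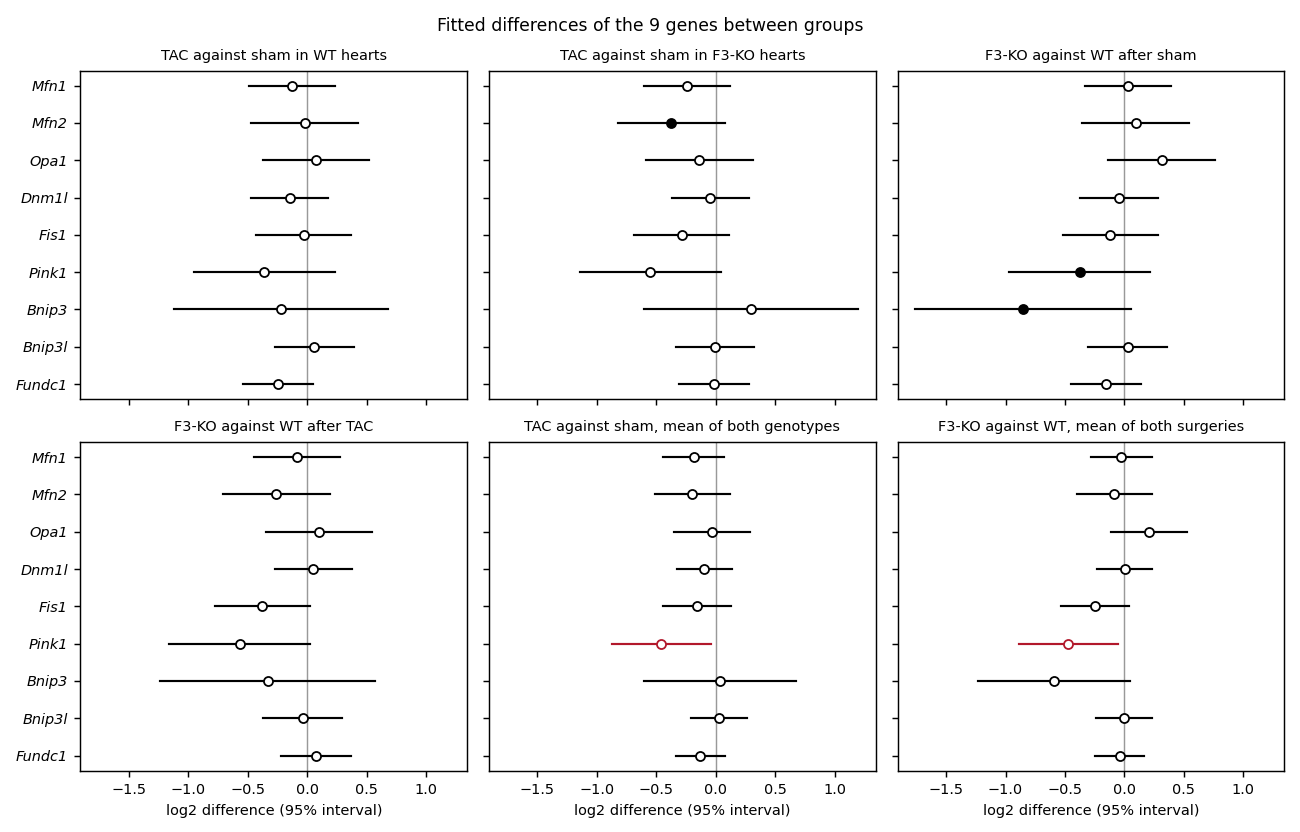
Fitted log2 differences of the 9 genes in 6 comparisons between groups (edgeR, 12 hearts), with 95% intervals as lines. Filled points mark genes whose groups of hearts did not overlap and red marks an unadjusted p under 0.05. Most points lie within 0.4 of 0, and the intervals of Bnip3 are the widest.

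Among the fusion genes, Mfn2, a mitofusin that also tethers mitochondria to the sarcoplasmic reticulum, was the most abundant. In the WT sham hearts Mfn2 was counted at 966, 761 and 1233 CPM, with 1008, 1081 and 1068 CPM in F3-KO sham, 776, 1116 and 1024 CPM in WT TAC and 753, 701 and 980 CPM in F3-KO TAC hearts. All 3 F3-KO TAC hearts lay below all 3 F3-KO sham hearts, while the WT groups overlapped and WT sham hearts alone spanned the values of nearly every other heart. The fitted difference for TAC in F3-KO hearts was -0.37 ± 0.21 (95% interval -0.82 to 0.07, unadjusted p = 0.094, adjusted p = 0.38 by edgeR), and groups that did not overlap, with TAC lower, were found for 11.4% of all tested genes in that comparison. In WT hearts TAC gave -0.02 ± 0.21, and the difference between the TAC effects was -0.35 ± 0.29 (edgeR adjusted p = 0.95).

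Mfn1, the second mitofusin, differed little between genotypes. Hearts 1 to 3 held 439, 398 and 445 CPM of Mfn1 after sham in WT mice and 417, 429 and 464 after sham in F3-KO mice, 345, 382 and 448 after TAC in WT mice and 340, 304 and 461 after TAC in F3-KO mice. The sham hearts lay close together, and the 3 lowest hearts of the 12 were WT TAC heart 1 and F3-KO TAC hearts 1 and 2, whereas heart 3 of both TAC groups was as high as the sham hearts. TAC gave -0.13 ± 0.17 in WT and -0.24 ± 0.17 in F3-KO hearts, with edgeR adjusted p-values of 0.92 and 0.48. Opa1, the dynamin-like GTPase of the inner membrane that also shapes cristae, showed no common direction. Opa1 stood at 265, 152 and 198 CPM in WT sham hearts 1, 2 and 3, at 215, 286 and 265 CPM in the F3-KO sham hearts, at 215, 227 and 207 CPM in those of WT TAC and at 231, 186 and 278 CPM in those of F3-KO TAC. WT sham heart 2 was the lowest of all and F3-KO sham heart 2 the highest, and the groups overlapped in every comparison. For Opa1 TAC gave 0.07 ± 0.21 in WT and -0.14 ± 0.21 in F3-KO hearts, and the genotype difference was 0.31 ± 0.21 after sham and 0.10 ± 0.21 after TAC, where the difference after sham, the highest of the 6 comparisons, had a 95% interval of -0.14 to 0.76.

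Of the fission genes, Dnm1l was steady. In the WT sham hearts Dnm1l was counted at 182, 152 and 171 CPM, with 169, 167 and 152 CPM in F3-KO sham, 119, 154 and 182 CPM in WT TAC and 165, 158 and 149 CPM in F3-KO TAC hearts. Only WT TAC heart 1 stood below the others, and the groups overlapped throughout. For Dnm1l TAC gave -0.15 ± 0.15 in WT and -0.05 ± 0.15 in F3-KO hearts, and the genotype difference was -0.05 ± 0.15 after sham and 0.05 ± 0.15 after TAC, and over 6 comparisons none of the 95% intervals reached beyond -0.47 or 0.38. Fis1, an outer membrane protein linked to fission and to mitophagy, had its lowest group mean in F3-KO TAC hearts. Hearts 1 to 3 held 71.1, 90.2 and 72.5 CPM of Fis1 after sham in WT mice and 78.8, 64.6 and 72.0 after sham in F3-KO mice, 53.7, 83.8 and 91.9 after TAC in WT mice and 54.3, 57.3 and 65.1 after TAC in F3-KO mice. The F3-KO TAC hearts overlapped the WT TAC hearts only through WT TAC heart 1, the lowest heart of the 12. Against WT TAC, the fitted difference was -0.38 ± 0.18 (95% interval -0.78 to 0.02, unadjusted p = 0.063, adjusted p = 0.51 by edgeR), and after sham the genotype difference was -0.12 ± 0.18. The difference after TAC leaned on single hearts, at -0.58 without WT TAC heart 1 and -0.23 without WT TAC heart 3.

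Pink1, the kinase that marks depolarised mitochondria, had the lowest unadjusted p-values of the members. Pink1 stood at 793, 752 and 892 CPM in WT sham hearts 1, 2 and 3, at 585, 611 and 682 CPM in the F3-KO sham hearts, at 447, 606 and 843 CPM in those of WT TAC and at 300, 357 and 624 CPM in those of F3-KO TAC. After sham, every F3-KO heart lay below every WT heart, which was so for 6.92% of all tested genes. After TAC the groups overlapped, with the lowest values in F3-KO TAC hearts 1 and 2 and with WT TAC heart 3 inside the WT sham range. The mean genotype effect was -0.47 ± 0.19 (95% interval -0.89 to -0.05, unadjusted p = 0.031, adjusted p = 0.44 by edgeR), made up of -0.38 ± 0.27 after sham and -0.57 ± 0.27 after TAC. The mean TAC effect was -0.46 ± 0.19 (95% interval -0.88 to -0.04, unadjusted p = 0.035, adjusted p = 0.24 by edgeR), made up of -0.36 ± 0.27 in WT and -0.55 ± 0.27 in F3-KO hearts. The difference between the 2 TAC effects was -0.19 ± 0.38 and was smaller than its SE (edgeR adjusted p = 0.99).

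The call of Pink1 turned on a single heart. Without F3-KO TAC heart 3, which had the fewest matrix marker counts of its group and 624 CPM of Pink1, the TAC effect in F3-KO hearts was -0.93 ± 0.23 with an adjusted p of 0.047 in edgeR, and the mean TAC effect was -0.65 ± 0.16 with an adjusted p of 0.038. Over all genes that fit called 778 and 849 genes in these 2 comparisons, in place of 0 and 11 with all hearts, so that many other genes changed their call with the same heart. Its genotype difference after TAC was -0.94 without F3-KO TAC heart 3 and -0.30 without WT TAC heart 3. Its TAC effect was -0.63 without WT TAC heart 3 and -0.16 without WT TAC heart 1 in WT hearts, and -0.36 without F3-KO TAC heart 1 in F3-KO hearts.

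Among the receptors, Bnip3, a BH3-domain protein of the outer membrane and a well known target of hypoxia signalling, varied most. In the WT sham hearts Bnip3 was counted at 280, 486 and 326 CPM, with 194, 182 and 229 CPM in F3-KO sham, 443, 156 and 336 CPM in WT TAC and 120, 232 and 391 CPM in F3-KO TAC hearts. After sham, all F3-KO hearts lay below all WT hearts and close to one another, an order found for 6.92% of all tested genes. After TAC the WT hearts spread from 156 to 443 CPM and the F3-KO hearts from 120 to 391 CPM, and they overlapped widely. The genotype difference after sham was -0.85 ± 0.42 (95% interval -1.76 to 0.05, unadjusted p = 0.063, adjusted p = 0.88 by edgeR), and -0.33 ± 0.41 after TAC. TAC gave -0.22 ± 0.41 in WT and 0.30 ± 0.41 in F3-KO hearts, and the difference of these 2 effects, 0.52 ± 0.58, was smaller than its SE (edgeR adjusted p = 0.97).

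Bnip3l, the paralog of Bnip3 best known for clearing mitochondria from maturing red blood cells, lay within a similar range in all groups. Hearts 1 to 3 held 75.5, 76.2 and 62.6 CPM of Bnip3l after sham in WT mice and 73.5, 69.5 and 75.6 after sham in F3-KO mice, 78.8, 62.3 and 82.0 after TAC in WT mice and 61.4, 87.5 and 68.5 after TAC in F3-KO mice. Lowest and highest values occurred side by side among the WT TAC hearts and again among the F3-KO TAC hearts. For Bnip3l TAC gave 0.06 ± 0.15 in WT and -0.01 ± 0.15 in F3-KO hearts, and the genotype difference was 0.03 ± 0.15 after sham and -0.04 ± 0.15 after TAC. No 95% interval of these and the mean effects reached beyond -0.37 or 0.39. Fundc1, a receptor whose binding to LC3 is set by phosphorylation in hypoxia, was likewise steady. Fundc1 stood at 36.7, 36.1 and 33.7 CPM in WT sham hearts 1, 2 and 3, at 29.6, 32.5 and 33.7 CPM in the F3-KO sham hearts, at 24.9, 29.2 and 36.1 CPM in those of WT TAC and at 30.0, 31.8 and 32.8 CPM in those of F3-KO TAC. The WT sham hearts were at the upper end and WT TAC heart 1 was the lowest, and WT TAC heart 3 kept the WT groups overlapping. TAC in WT hearts gave -0.24 ± 0.14 (unadjusted p = 0.098, adjusted p = 0.80 by edgeR) and TAC in F3-KO hearts -0.02 ± 0.13. The former was -0.40 without WT TAC heart 3 and -0.12 without WT TAC heart 1.

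**Figure D3:**
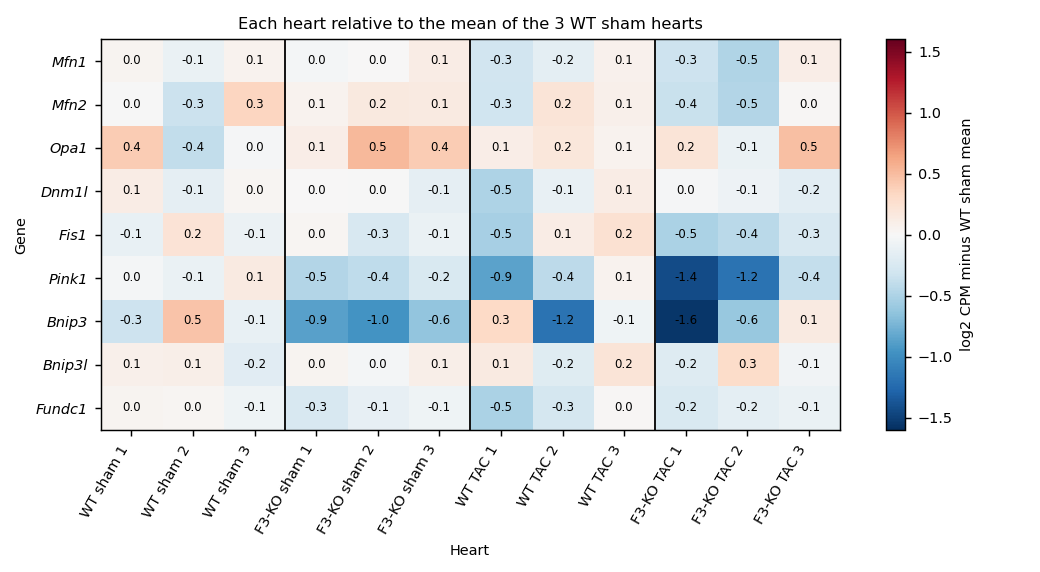
Log2 CPM of each gene (rows) in each heart (columns) minus the mean of the 3 WT sham hearts, with blue for lower and red for higher and the value written in each cell. Pink1 was lowest in F3-KO TAC hearts 1 and 2 and Bnip3 in F3-KO TAC heart 1 and WT TAC heart 2.

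The hearts in which Pink1 was low were those rich in matrix transcripts, a relation noticed after the values had been seen. Each member was set against the mean log2 CPM of the 15 gene lists with at least 3 tested genes, which left out the adipocyte and atrial markers, and against 4 hypertrophy genes over the 12 hearts, 171 relations in all, with two-sided permutation tests of 100000 draws. The draws mixed all 12 hearts without regard to group, so shifts between the 4 groups also enter these p-values. After correction 12 relations passed by Pearson's r and 3 of these by Spearman's rho as well, 1 of Pink1 and 2 of Mfn1. Pink1 was lower where the 8 fibroblast and matrix markers were higher, with Pearson's r = -0.95 (permutation p = 5.0e-05, adjusted p = 0.0043) and Spearman's rho = -0.97 (permutation p = 2.0e-05, adjusted p = 0.0034). Without the 2 hearts farthest from the median of the markers, F3-KO TAC hearts 1 and 2, r was -0.95. It was -0.98 within the 6 sham hearts, -0.93 within the 6 TAC hearts and -0.91 for deviations from the 4 group means. Of all tested genes, 0.106% had an r with the matrix markers as low as that of Pink1. The points share libraries and scaling. None of the 8 markers was at 0 in any heart, all 8 lay above 0 in the mean TAC effect with a median of 1.47, 6 of them at an unadjusted p under 0.05, and none was called by edgeR. The 8 macrophage markers were also all above 0 in the mean TAC effect (median 0.74), and Pink1 was lower where they were higher (r = -0.78, rho = -0.74, adjusted permutation p = 0.043 and 0.12). Its r was -0.62 with the endothelial and -0.43 with the smooth muscle and pericyte markers. With the red blood cell and the cardiomyocyte markers it was -0.10 and 0.64, and none of these passed. For deviations from group means these r were, in that order, -0.89, -0.64, -0.62 and 0.64, and with the macrophage markers -0.59. The part of these cell types in the Pink1 differences was not tested.

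The 2 relations of Mfn1 that passed by both measures were with the mitophagy pathway and with the MICOS and cristae genes. Mfn1 was higher where the 23 mitophagy genes were (r = 0.82, permutation p = 9.0e-04, adjusted p = 0.022; rho = 0.90, permutation p = 2.1e-04, adjusted p = 0.018), and r was 0.80 without F3-KO TAC hearts 1 and 3, 0.81 within the 6 sham hearts and 0.83 within the 6 TAC hearts. With the 9 MICOS and cristae genes, which shape the inner membrane, it ran in the same direction (r = 0.85, permutation p = 7.2e-04, adjusted p = 0.021; rho = 0.87, permutation p = 5.1e-04, adjusted p = 0.029), but r was 0.67 without F3-KO TAC hearts 1 and 2 and 0.29 within the 6 sham hearts, against 0.98 within the 6 TAC hearts. Mfn1 was also lower where the matrix markers were higher (r = -0.92, permutation p = 2.1e-04, adjusted p = 0.0090; rho = -0.76, permutation p = 0.0059, adjusted p = 0.12). That relation too rested in part on F3-KO TAC hearts 1 and 2, since r was -0.77 without them. It was -0.33 within the 6 sham hearts, against -0.95 within the 6 TAC hearts. For deviations from the 4 group means r was -0.97, beside -0.91 for Pink1. By r alone Mfn1 also passed with mitochondrial import and maintenance (r = 0.85, rho = 0.74, adjusted permutation p = 0.024 and 0.12) and with the fusion and fission partners (r = 0.79, rho = 0.66, adjusted permutation p = 0.043 and 0.18). Shares of all tested genes with an r as high as that of Mfn1 were 0.688% for the mitophagy genes and 0.887% for MICOS and cristae. They were 2.09% for import and maintenance and 4.02% for the fusion and fission partners.

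The 4 relations of Mfn2 that passed did so by r alone. It was higher where the fusion and fission partners were (r = 0.88, rho = 0.80, adjusted permutation p = 0.0043 and 0.11), and likewise with mitochondrial import and maintenance (r = 0.88, rho = 0.75, adjusted permutation p = 0.0086 and 0.12) and with the regulators (r = 0.83, rho = 0.78, adjusted permutation p = 0.024 and 0.12). Without the 2 hearts farthest from each median these r were 0.83, 0.84 and 0.75. With all hearts, an r as high as that of Mfn2 was found for 1.06%, 1.19% and 0.610% of all tested genes. Mfn2 was also higher where the 9 cardiomyocyte markers were (r = 0.90, permutation p = 4.0e-04, adjusted p = 0.014), though its rho of 0.72 did not pass the correction (permutation p = 0.011, adjusted p = 0.13). Without WT sham heart 2 and F3-KO TAC heart 2 its r was 0.82. With the matrix markers Mfn2 had the same sign as Pink1 and Mfn1 but did not pass the correction (r = -0.76, rho = -0.46, adjusted permutation p = 0.062 and 0.36). Cardiomyocyte markers summed to 65771 to 87118 CPM in WT sham, 85564 to 94040 in F3-KO sham, 71348 to 99407 in WT TAC and 62415 to 73094 in F3-KO TAC hearts, and none of these 9 markers was at 0 in any heart.

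Bnip3 passed by r alone with 1 list, the 6 genes of mitochondrial transport, and was lower where they were higher (r = -0.76, rho = -0.69, adjusted permutation p = 0.043 and 0.16). Without WT sham heart 2 and WT TAC heart 1 that r was -0.59, and it was -0.73 for deviations from group means. An r with the transport genes as low as that of Bnip3 over all hearts was found for 0.759% of all tested genes. Its r was -0.31 with the matrix and -0.18 with the cardiomyocyte markers. The next strongest relation of Bnip3, which did not pass, was with Myh7, the slow myosin heavy chain that is switched back on in stressed ventricles. Myh7 stood at 347, 9179 and 4020 CPM in the WT sham hearts, 648, 520 and 290 in F3-KO sham, 4383, 1285 and 21580 in WT TAC and 174, 8073 and 23126 in F3-KO TAC hearts. WT sham heart 2 thus had far more Myh7 than WT sham heart 1, and F3-KO TAC heart 1 had the least of all, and these 2 hearts, WT sham 2 and F3-KO TAC 1, also had the highest and the lowest Bnip3 of the 12. The other hypertrophy genes ran opposite to Myh7 between these 2 hearts. Nppa, Nppb and Acta1 stood at 37.3, 95.2 and 45.1 CPM in WT sham 2. In F3-KO TAC 1 they stood at 153, 626 and 3564 CPM. For Myh7 r was 0.73 and rho 0.74 (permutation p = 0.0090 and 0.0077), with adjusted p-values above the threshold (0.081 and 0.12). Without F3-KO TAC 1 and F3-KO TAC 3, the hearts farthest from the median of Myh7, r was 0.60, and it was 0.80 for deviations from group means. The part of Myh7 in the spread of Bnip3 was not tested.

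**Figure D4:**
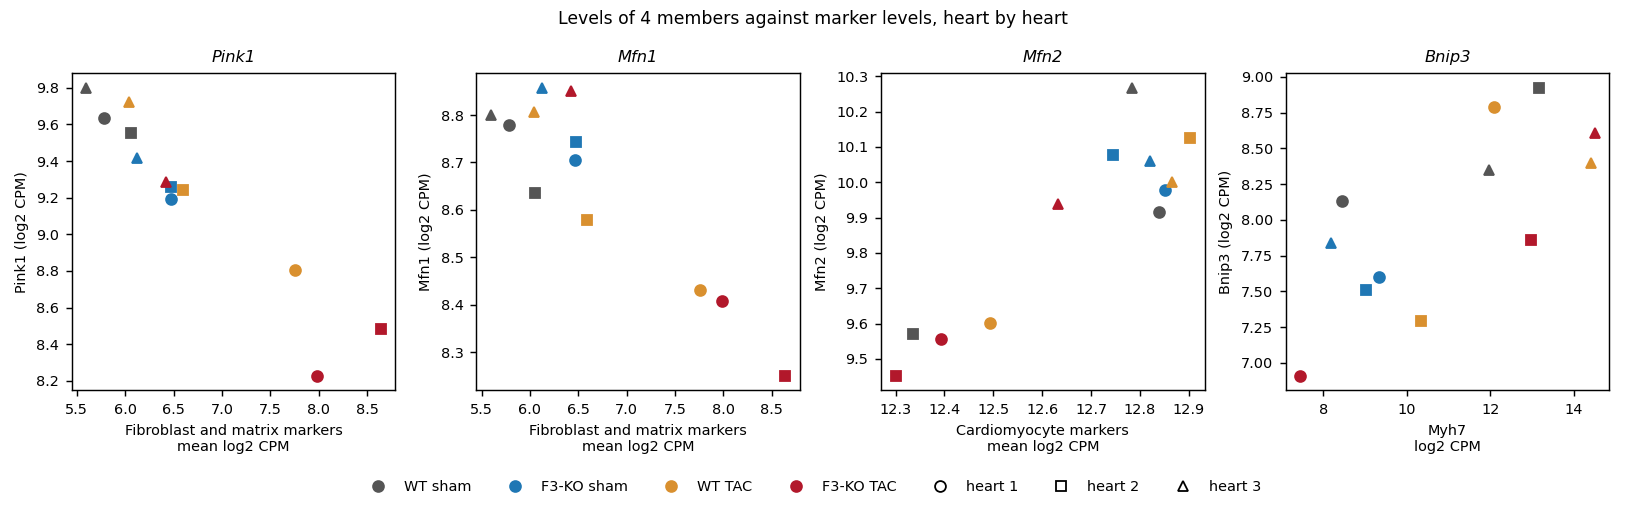
Log2 CPM of Pink1 and Mfn1 against the mean log2 CPM of fibroblast and matrix markers, of Mfn2 against cardiomyocyte markers and of Bnip3 against Myh7, with one point for each of the 12 hearts, coloured by group and shaped by heart number. The Pink1 points run from the WT sham hearts at the upper left to F3-KO TAC hearts 1 and 2 at the lower right.

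Pink1 and Mfn1 also moved with each other across hearts (r = 0.84 over 12 hearts, 0.91 within groups), the highest of the 36 pairs of members, and their promoters are shown for that reason, beside that of Bnip3, the member with the widest spread. The 250 bases before the transcription start were taken from RefSeq (GRCm38.p6), at chr4:138326297-138326546 (minus strand) for Pink1, chr3:32529232-32529481 (plus strand) for Mfn1 and chr7:138909507-138909756 (minus strand) for Bnip3. The following motifs were searched on both strands. ACGTG, 1 form of the core of the hypoxia response element, was present in 16.6% of 32851 promoter windows of this length. The other form of that core, GCGTG, was not searched and is not marked. CACGTG, the E-box bound by TFEB and others, which contains ACGTG, was present in 6.02%. AAGGTCA, a site bound by ERR receptors, was present in 4.08%, and TGACGTCA, the cAMP response element, in 1.55%. Capitals mark the matches.
Pink1: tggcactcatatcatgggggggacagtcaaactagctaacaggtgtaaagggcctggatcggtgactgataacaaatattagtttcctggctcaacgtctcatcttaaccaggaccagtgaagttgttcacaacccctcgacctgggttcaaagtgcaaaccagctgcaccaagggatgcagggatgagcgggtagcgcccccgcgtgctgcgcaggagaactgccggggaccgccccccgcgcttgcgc
Mfn1: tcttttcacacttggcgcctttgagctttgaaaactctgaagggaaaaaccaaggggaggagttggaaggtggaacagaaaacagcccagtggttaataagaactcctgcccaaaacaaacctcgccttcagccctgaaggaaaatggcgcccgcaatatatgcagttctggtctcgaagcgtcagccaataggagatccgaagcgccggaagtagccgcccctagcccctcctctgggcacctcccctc
Bnip3: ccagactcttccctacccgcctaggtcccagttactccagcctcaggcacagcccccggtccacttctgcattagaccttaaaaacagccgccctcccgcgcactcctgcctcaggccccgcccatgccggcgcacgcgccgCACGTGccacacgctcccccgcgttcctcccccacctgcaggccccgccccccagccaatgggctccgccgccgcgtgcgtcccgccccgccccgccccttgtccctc

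The searched motifs occurred in neither the Pink1 nor the Mfn1 window, and Bnip3 held a single CACGTG at position -108 from the start, whose palindrome gives ACGTG on both strands. Of the 8 members with an entry, which have 12 windows in all, only 1 of the 3 Mfn2 windows held another match, an ACGTG at position -39. Bnip3l was not looked up elsewhere.

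The wider pathway was likewise without calls in edgeR, though some of its genes had larger fitted differences than most members. No gene was called among the fusion and fission partners, the MICOS and cristae genes, the transport, mitophagy, autophagy, import and maintenance, hypoxia and regulator lists in any of the 7 comparisons with edgeR. The 17 genes of mitochondrial import and maintenance were all below 0 for TAC in F3-KO hearts, with a median of -0.28 and 0 higher and 4 lower at an unadjusted p under 0.05, a line that 17.1% of all tested genes passed in either direction and 6.47% as lower, whereas 4 of 17 lay above 0 for TAC in WT hearts (median -0.08). The lowest p-values in that list belonged to Timm44, an anchor of the matrix import motor (-0.39 ± 0.13), and Cs, citrate synthase (-0.59 ± 0.21), with edgeR adjusted p-values of 0.20 and 0.21. Of the 22 fusion and fission partners tested, 6 of 22 lay above 0 for TAC in F3-KO hearts (median -0.18). At an unadjusted p under 0.05, 0 were higher and 5 lower, beside 17.1% of all genes in either direction and 6.47% as lower. Mief2, a receptor that draws DRP1 to mitochondria, gave -0.42 ± 0.16 and Miga2, a factor of mitochondrial fusion, -0.52 ± 0.18, with edgeR adjusted p-values of 0.22 and 0.21. In the same comparison the lowest p-values of the MICOS and cristae genes were those of Minos1 (-0.41 ± 0.17) and Apoo (-0.36 ± 0.16), both subunits of MICOS. Among the transport genes they were those of Kif5b, a kinesin heavy chain (0.55 ± 0.15), and Rhot2, the Miro2 adaptor of the outer membrane (-0.59 ± 0.23). None of these 4 was called (edgeR adjusted p = 0.25, 0.27, 0.17 and 0.22).

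In the mitophagy pathway, 9 of 23 genes lay above 0 for TAC in F3-KO hearts and 8 of 23 in the mean genotype effect, with medians of -0.06 and -0.03. For TAC in F3-KO hearts Htra2, a protease of the intermembrane space, gave -0.31 ± 0.12 and Parl, the inner membrane protease that cleaves PINK1, -0.35 ± 0.16 (edgeR adjusted p = 0.22 and 0.30). The adaptor Optn, which links ubiquitinated mitochondria to LC3, was 0.61 ± 0.19 in the mean genotype effect (unadjusted p = 0.0071, adjusted p = 0.27 by edgeR), opposite in sign to Pink1, and Tbk1, the kinase that phosphorylates it, 0.22 ± 0.08 (adjusted p = 0.39 by edgeR). Of the 34 autophagy genes, 21 of 34 lay above 0 for TAC in F3-KO hearts (median 0.07), where Map1lc3a, an LC3 gene, gave -0.42 ± 0.16 and Atg9a, a lipid scramblase of the growing autophagosome, -0.41 ± 0.18 (edgeR adjusted p = 0.23 and 0.28). Among the 18 hypoxia genes, 10 of 18 lay above 0 for F3-KO against WT after sham, where all Bnip3 values were lower, and the median was 0.01. Egln3, an oxygen sensor that is itself induced in hypoxia, gave -0.63 ± 0.30 in that comparison and P4ha1, a collagen prolyl hydroxylase, -0.32 ± 0.18 (edgeR adjusted p = 0.85 and 0.98). For TAC in F3-KO hearts the lowest p-values were those of Pfkfb3, a regulator of glycolysis (1.59 ± 0.54), and Ddit4, an inhibitor of mTORC1 (-0.67 ± 0.29), with edgeR adjusted p-values of 0.19 and 0.26. Across the 12 hearts r with the mean of the hypoxia genes was 0.55 for Bnip3 and 0.75 for Pink1. Neither passed the correction (adjusted permutation p = 0.22 and 0.051 by r, 0.45 and 0.18 by rho). The part of hypoxia in these values was not tested. Of the 16 regulators, Hif1a, the oxygen-regulated transcription factor, gave 0.59 ± 0.16 for TAC in F3-KO hearts and Prkaa1, a catalytic subunit of AMPK, 0.36 ± 0.11, with edgeR adjusted p-values of 0.17 and 0.18. In the mean TAC effect Tfeb, the master factor of lysosomal genes, gave -0.40 ± 0.11 and Esrra, the nuclear receptor ERR alpha, -0.37 ± 0.11, with edgeR adjusted p-values of 0.11 and 0.13. Of the 4 hypertrophy markers, Nppb and Acta1 were called higher in the mean TAC effect.

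For each member the 1 gene with the most similar levels over the 12 hearts is named. Among 13417 genes, log2 CPM followed Pink1 most closely for Bckdha, a subunit of the branched-chain ketoacid dehydrogenase (r = 0.97), Mfn1 for Phyh, a peroxisomal hydroxylase (r = 0.98), Mfn2 for Ogdh of the citric acid cycle (r = 0.97) and Opa1 for Pdhx of the pyruvate dehydrogenase complex (r = 0.95). Bnip3 was followed by Fggy, a carbohydrate kinase gene (r = 0.97), Fis1 by Nenf (r = 0.97), Fundc1 by Ublcp1 (r = 0.95) and Dnm1l by Dkc1 (r = 0.90). Bnip3l had no close companion, its best r being 0.78, with a gene model that has no standard symbol. These are descriptions over 12 libraries, each the best of many genes.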

How the data were processed

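Whole-heart RNA of 12 mice was sequenced, with 3 hearts in each of the 4 groups that the sample labels give. The authors deposited estimated counts per gene without normalization, 40.6% of them not exactly whole numbers. Per the study's methods, reads were cleaned and mapped with HISAT2 and STAR before that, and the counting tool, annotation and use of strand are not given in the sources used here. The submitters' processing notes name HISAT2 2.0.4 and STAR 2.3.0 and the genome builds mm8 and mm9, with no role, so the build behind the counts is unclear. Reads of close relatives such as Mfn1 and Mfn2, or of Mfn1 and the protein-coding gene Gnb4 that overlaps it, may therefore have been divided differently than by strand and position. The pseudogene Gm18258 overlaps Bnip3, whose counts were whole numbers in all 12 hearts. For 11 hearts a separate table held the same values as the joint table. The table of WT sham heart 2 breaks off early and was not used.

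Estimated counts were rounded to whole numbers. Genes were filtered with filterByExpr (minimum count 10), which kept 14094 of 19308 genes and all 9 members, and libraries were scaled by TMM (factors 0.931 to 1.09). A single quasi-likelihood model of the 4 groups, with no covariate, was then fitted in edgeR 4.0.16 (R 4.3.3). Contrasts were the TAC effect in each genotype, the genotype effect after each operation, the interaction, and the mean of each pair of effects, with Benjamini-Hochberg adjustment over all tested genes. DESeq2 1.42.0, limma 3.58.1, other filters and scalings, a replicate block and leaving out each heart were the alternatives. The edgeR, DESeq2 and limma-trend fits were tested on simulated counts for TAC against sham in WT hearts; the other settings and contrasts were not simulated. Log2 CPM used a prior count of 2. Relations across hearts used permutation tests with a fixed seed.

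Members are given by their values in each heart and their differences or ranges over the comparisons. By the naming rule, genes of other lists are those called or, with none called, those with the lowest 2 p-values. They are printed for TAC in F3-KO hearts and for 1 other comparison of the mitophagy, hypoxia and regulator lists, and not for the rest. 1 further gene of the chosen set is not reported here. The members and lists were chosen with earlier results of these data known. The single-heart values, the relations with marker genes, and Myh7 beside Bnip3 were looked at after the values had been seen. Promoter sequence is from RefSeq, matched by gene identifier, and transcript lengths are from GENCODE M21. Libraries are separate hearts, and precision is limited by 3 hearts a group rather than by 10424334 to 14372011 counts a library.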

Additional observations from a re-analysis of the deposited data

How the results depend on the processing

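With all 12 hearts, 0 of 9 members were called in every comparison under each other setting: the Wald test of DESeq2, its size factors in place of TMM, either change of the count filter, limma-trend, the replicate block, and separate models of 2 groups. With 1 heart left out, the number of members called was 0 to 1 for TAC in F3-KO hearts and 0 to 1 for the mean TAC effect (Pink1, without F3-KO TAC heart 3), and 0 in the other 5 comparisons. Correlations of deviations from the group means were -0.14 to 0.36 (median 0.04) for the 18 pairs of hearts with the same number and -0.36 to 0.20 (median -0.03) for the 36 pairs with different numbers, WT TAC heart 3 with F3-KO TAC heart 3 being the highest. Only 4 of the 18 were over 0.1, and 6 of 12 hearts correlated best with a heart of their own number, so the numbers were not taken as pairs. The replicate block left 0 members called in each comparison and 1 gene for TAC in WT hearts, 0 genes for TAC in F3-KO hearts, 8 genes for genotype after sham, 8 genes for genotype after TAC, 0 genes for the interaction, 10 genes for the mean TAC effect and 56 genes for the mean genotype effect. The number of all genes called was 0 for TAC in WT hearts, 0 for TAC in F3-KO hearts, 15 for genotype after sham, 11 for genotype after TAC, 0 for the interaction, 11 for the mean TAC effect and 58 for the mean genotype effect in edgeR and moved by over 1.5 times in these cases. With the Wald test of DESeq2 it was 27 for TAC in WT hearts, 443 for TAC in F3-KO hearts, 105 for genotype after sham, 101 for genotype after TAC, 6 for the interaction, 656 for the mean TAC effect and 217 for the mean genotype effect. With no filter it was 1 for TAC in WT hearts, 7 for TAC in F3-KO hearts, 17 for genotype after TAC and 23 for the mean TAC effect. With at least 10 counts in every library it was 1 for TAC in WT hearts, 6 for TAC in F3-KO hearts and 36 for the mean TAC effect. With limma-trend it was 1 for TAC in WT hearts, 8 for TAC in F3-KO hearts, 25 for genotype after sham and 1 for the interaction. With a model of only the 2 groups compared it was 1 for TAC in F3-KO hearts, 56 for genotype after sham and 0 for genotype after TAC. With 1 heart left out it ranged from 0 to 1 for TAC in WT hearts, 0 to 778 for TAC in F3-KO hearts, 2 to 7 for genotype after sham, 6 to 103 for genotype after TAC, 0 to 4 for the interaction, 0 to 849 for the mean TAC effect and 30 to 125 for the mean genotype effect, and the highest values for TAC in F3-KO hearts, genotype after TAC and both mean effects came without F3-KO TAC heart 3. Single members changed sign under other settings in 1 case: Bnip3 for the mean TAC effect gave -0.08 with limma-trend. With 1 heart left out, these fitted log2 differences took both signs. For TAC in WT hearts the ranges were Bnip3 -0.56 to 0.10, Bnip3l -0.03 to 0.17, Fis1 -0.18 to 0.17, Mfn2 -0.18 to 0.17 and Opa1 -0.10 to 0.30. For TAC in F3-KO hearts the ranges were Bnip3 -0.20 to 0.62, Bnip3l -0.18 to 0.09 and Fundc1 -0.07 to 0.02. For genotype after sham the ranges were Bnip3l -0.06 to 0.08, Dnm1l -0.12 to 0.01, Mfn1 -0.02 to 0.06 and Mfn2 -0.06 to 0.29. For genotype after TAC the ranges were Bnip3 -0.83 to 0.01, Bnip3l -0.21 to 0.06, Dnm1l -0.10 to 0.20, Fundc1 -0.05 to 0.22, Mfn1 -0.28 to 0.02 and Opa1 -0.05 to 0.23. For the interaction the ranges were Bnip3l -0.23 to 0.04, Dnm1l -0.05 to 0.25 and Pink1 -0.57 to 0.07. For the mean TAC effect the ranges were Bnip3 -0.21 to 0.20, Bnip3l -0.06 to 0.08 and Opa1 -0.12 to 0.08. For the mean genotype effect the ranges were Bnip3l -0.09 to 0.04, Dnm1l -0.07 to 0.08, Fundc1 -0.10 to 0.04, Mfn1 -0.13 to 0.02 and Mfn2 -0.16 to 0.01. Pink1 and Bnip3 stayed below 0 for genotype after sham in all fits: with 1 heart left out Pink1 gave -0.44 to -0.30 and Bnip3 -1.01 to -0.59, neither called. The cause of these changes was not tested. With 3 hearts a group and SEs of 0.13 to 0.42 for single comparisons, single comparisons could show only differences well above those seen for most members.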
